A study of Homo sapiens with 6 samples.

Results

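Integrins are the receptors by which cells hold on to the matrix around them, and laminins are the basement membrane proteins that many epithelial integrins bind. All genes for integrin α chains, integrin β chains and laminin chains were taken by their symbols, which gave 38 of the 26484 genes in the count tables: 18 integrin α chains, 8 integrin β chains and 12 laminin chains. Of these, 21 had enough reads to be tested, among 11517 tested genes in all. RNA came from MCF10CA1a cells, a malignant line of the MCF10A human breast epithelial lineage, grown in medium with 5% horse serum. The dishes carried soft gels of 500 Pa or stiff gels of 8000 Pa, both coated with growth factor-reduced Matrigel at 0.14 mg/ml, and RNA labelled cytosolic was taken on day 5 after a change of medium on day 4. Each stiffness had 3 libraries, described as biological replicates and numbered 1 to 3. Both groups share 1 cell line and the same coating, which itself contains laminin, so no group without a laminin ligand was analysed here.

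An integrin is a pair of 1 α and 1 β chain, and the pair sets the ligand. The products of ITGA3 and ITGA6 bind laminin when joined to the β1 chain of ITGB1, and the α6 chain also joins the β4 chain of ITGB4, the laminin receptor at the core of hemidesmosomes, the junctions that tie epithelial keratin to the basement membrane. The α2 chain with β1 binds collagen, and the α5 and αV chains with their β partners bind proteins carrying the RGD motif, such as fibronectin. A laminin is a trimer of 1 α, 1 β and 1 γ chain. The epithelial trimer that holds LAMA3 and LAMB3 is the ligand of the β4 receptor in epithelia of skin and breast.

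Coding sequences of both β4 receptor chains and of LAMA3 and LAMB3 are shown because the fold changes described below ran along base composition. This held over all 6 libraries and in the replicate 1 pair, was reversed in pair 2 and was nearly absent in pair 3. Each sequence is the middle 120 bases of the coding sequence of the longest coding transcript in GENCODE 29 (GRCh38), read 5′ to 3′, with G and C in capitals.
ITGA6, bases 1549 to 1668: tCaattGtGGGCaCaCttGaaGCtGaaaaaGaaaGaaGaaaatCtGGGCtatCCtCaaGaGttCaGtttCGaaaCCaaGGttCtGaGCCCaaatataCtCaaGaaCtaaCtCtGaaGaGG
ITGB4, bases 2674 to 2793: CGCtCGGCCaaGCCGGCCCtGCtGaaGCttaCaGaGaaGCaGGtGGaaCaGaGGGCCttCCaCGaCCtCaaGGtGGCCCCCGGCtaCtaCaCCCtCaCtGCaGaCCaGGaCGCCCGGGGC
LAMA3, bases 4939 to 5058: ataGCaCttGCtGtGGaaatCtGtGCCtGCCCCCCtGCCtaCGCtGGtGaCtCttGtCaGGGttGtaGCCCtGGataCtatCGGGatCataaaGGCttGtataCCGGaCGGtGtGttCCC
LAMB3, bases 1699 to 1818: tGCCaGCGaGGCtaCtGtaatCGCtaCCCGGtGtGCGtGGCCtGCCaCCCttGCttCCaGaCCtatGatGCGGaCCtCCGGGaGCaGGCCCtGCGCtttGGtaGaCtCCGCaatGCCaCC
The ITGA6 stretch held 40.8% G and C, the ITGB4 stretch 66.7%, the LAMA3 stretch 54.2% and the LAMB3 stretch 63.3%. Over the whole transcript the values were 42.9% for ITGA6, 63.7% for ITGB4, 50.7% for LAMA3 and 58.9% for LAMB3. The median over the tested genes with an annotated transcript was 48.3%. LAMA3 lay above that median, yet its log2 fold change, given below, was 0.57.

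The label of the cells was checked on marker genes. The 5 epithelial markers together took 9577 to 22436 CPM in the 6 libraries, where CPM is reads scaled to a common library total with TMM factors, and the 5 basal markers took 11895 to 15712 CPM on soft and 7192 to 12127 CPM on stiff gels. Of the basal markers 4 of 5 were below 0 in log2 fold change with a median of -0.36 (KRT17 -0.89, KRT5 -0.60, KRT15 -0.36, KRT14 -0.34). TP63 went the other way at 1.07, higher on the stiff gel in all 3 pairs, and 0 of the 5 passed in either edgeR fit. Most of the basal sum was KRT15, with means of 10566 CPM on soft and 8251 CPM on stiff gels. The leukocyte list took 24.0 to 50.7 CPM with the defining PTPRC, CD3E and CD53 at 0 reads, the fibroblast list 1.23 to 4.65 CPM and the platelet list at most 0.698 CPM. The endothelial list took 92.7 to 149 CPM on soft and 208 to 252 CPM on stiff gels, almost all of it PECAM1, with TEK and CLDN5 at 0 reads. Libraries held 8305601 to 18779742 counts. At the extremes, 8000 Pa replicate 1 had the highest CPM for 11 of the 21 tested chains (30.5% of all tested genes) and the lowest for 6 (33.3%), and 500 Pa replicate 3 had the highest for 4 (23.0%) and the lowest for 7 (24.3%).

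The comparison asked which chains differ between cells on soft and on stiff gels. No integrin or laminin chain passed at an adjusted p under 0.05 (0 of 21) in edgeR's quasi-likelihood test of 8000 Pa against 500 Pa, where the percentage of all tested genes called was 0%. The adjusted p was 1 for every chain. With the replicate number added as a term, 0 chains passed and their adjusted p ran from 0.308 to 0.961 in edgeR. In that fit 0.530% of all tested genes were called, and its p-values used a spread shared across genes of like level. Without an adjustment, 0 of 21 chains reached a p under 0.05 in the first fit (2.45% of all tested genes) and 4 did in the second (10.6%), namely LAMA3, LAMA4 and LAMC1 on the higher side and ITGB4 on the lower. Values below are therefore levels and fold changes that did not pass, given as log2 of 8000 Pa over 500 Pa with the standard error (SE) of edgeR, and CPM is given as mean ± SD over 3 libraries.

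By class, the 3 laminin receptor chains ITGA3, ITGA6 and ITGB4 had a median of -0.36 in log2 fold change, 1 above and 2 below 0. The single tested collagen receptor chain, ITGA2, stood at 0.39, and the 5 tested chains of RGD receptors had a median of 0.19, with 4 above and 1 below 0. The laminin α chains had a median of 0.56 (2 of 3 above 0) and the β chains -0.19 (1 of 3). Over all 21 chains the median was 0.32 with 14 above 0, against a median of 0.01 and 51.2% above 0 over all tested genes. The groups of libraries did not overlap for 2 of the 21 chains (6.87% of all tested genes), LAMA4 on the higher side (4.02%) and ITGAE on the lower (2.85%). The median of the laminin receptor chains with the scarce ITGA7 added was -0.01. These class medians moved with single libraries. Without 8000 Pa replicate 1 they were -0.17 for the 3 laminin receptor chains, -0.15 for the RGD chains, 0.20 for ITGA2, 0.13 for the laminin α chains and 0.05 for the laminin β chains, so that the RGD and laminin β medians changed sign. Without 500 Pa replicate 3 they were -0.09 for the laminin receptor chains, 0.15 for the RGD chains, 0.27 for the laminin α chains and 0.06 for the laminin β chains. With an offset for GC content, described below, they were -0.11, 0.12, 0.41 and 0.01 in the same order.

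**Figure D1:**
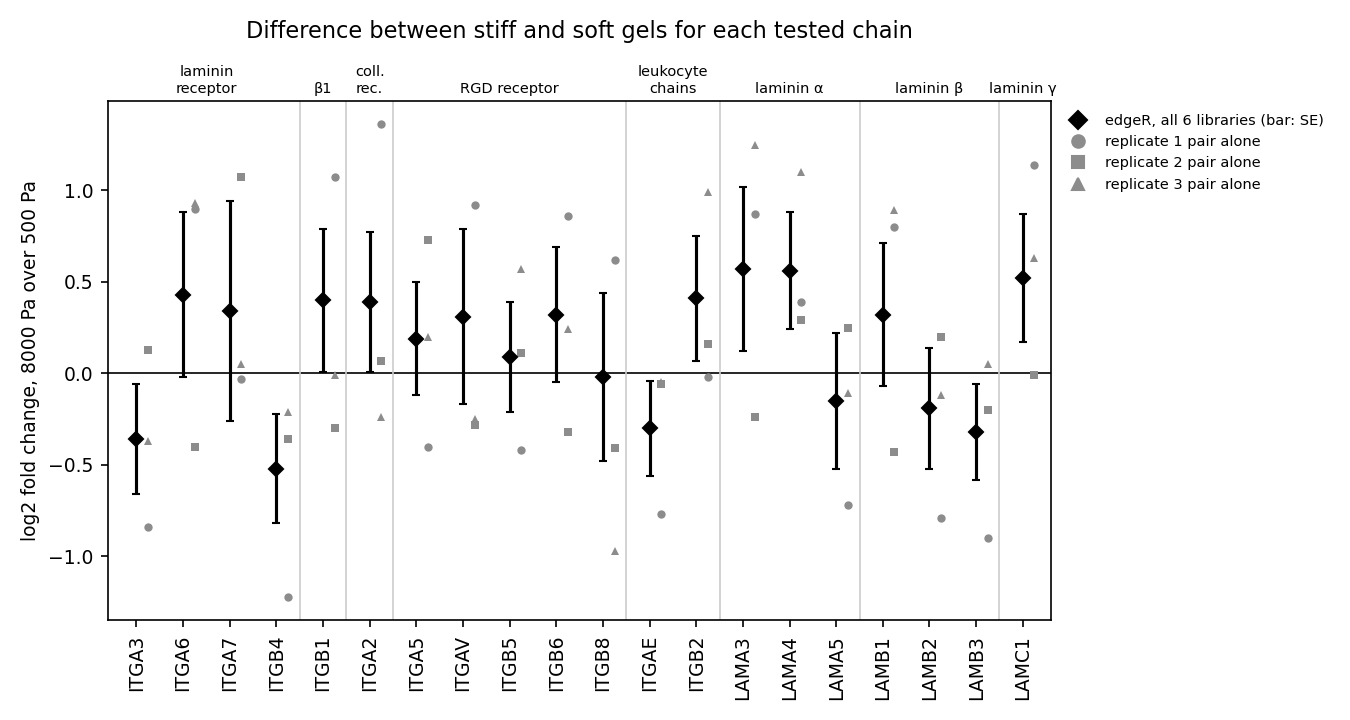
Log2 fold change (8000 Pa over 500 Pa, vertical axis) of 20 of the 21 tested chains, grouped by class. Black diamonds with SE bars are the edgeR values from all 6 libraries and grey symbols are the differences of the 3 same-numbered pairs taken alone, which for ITGA6 stand at 0.90, -0.40 and 0.93 and for ITGB4 at -1.22, -0.36 and -0.21.

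ITGB4 was the most abundant integrin transcript. Its gene lies on chromosome 17 from 75721328 to 75757818 on the plus strand (GENCODE 29, GRCh38). It had 12432, 5901 and 5720 reads in the 500 Pa libraries 1 to 3 and 3725, 4852 and 7083 in the 8000 Pa libraries, which is 695, 659.7 and 817 CPM on soft and 298, 513 and 706 CPM on stiff gels. In bulk RNA, fewer cells of a kind and less RNA per cell cannot be told apart. The 2 lowest values were on stiff gels, but 8000 Pa replicate 3 lay above 500 Pa replicates 1 and 2, so the groups overlapped. The means were 724 ± 82.9 and 505 ± 204 CPM, and the log2 fold change stood at -0.52 (SE 0.30), moving to -0.25 without 8000 Pa replicate 1 and to -0.83 without 8000 Pa replicate 3. Of the basal markers 4 of 5 were also lower on stiff gels, while TP63 was higher (1.07). Of the epithelial markers 3 were lower, among them KRT8 (-0.31) and KRT18 (-0.33), and 2 were higher. The part of these markers in the ITGB4 value was not tested. All 3 pairs of ITGB4 were lower on the stiff gel, as they were for 15.2% of all tested genes. With an offset for the GC content of the transcript in each library, the log2 fold change of ITGB4 was -0.28.

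ITGA6, whose product pairs with β4 in hemidesmosomes, had the opposite sign. The gene lies on chromosome 2 from 172427354 to 172506282 (plus strand). Reads numbered 1085, 637 and 146 at 500 Pa and 1414, 509 and 400 at 8000 Pa, or 60.6, 71.2 and 20.9 against 113, 53.8 and 39.9 CPM. The highest value was in 8000 Pa replicate 1 and the lowest in 500 Pa replicate 3, so the groups overlapped. Of the other 4 libraries, the soft ones (60.6 and 71.2 CPM) lay above the stiff ones (53.8 and 39.9 CPM), opposite to the fold change. The log2 fold change was 0.43 (SE 0.45), and it was -0.13 without 8000 Pa replicate 1 and 0.23 with the GC offset. Pairs 1 and 3 were higher on the stiff gel and pair 2 was lower.

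ITGA3 encodes the α3 chain, the other main laminin receptor chain of epithelia, and lies on chromosome 17 from 50055968 to 50090481 (plus strand). It had 2878, 1027 and 1450 reads on soft and 1120, 1190 and 1612 on stiff gels, or 161, 115 and 207 against 89.5, 126 and 161 CPM. The groups overlapped widely, with means of 161 ± 46.2 and 125 ± 35.6 CPM. Its log2 fold change was -0.36 (SE 0.30), -0.84 in pair 1, 0.13 in pair 2 and -0.37 in pair 3, and -0.11 with the GC offset. Without 500 Pa replicate 3 it was -0.09, and without 8000 Pa replicate 3 it was -0.57. ITGA7, a laminin receptor chain known mainly from muscle, had only 4 to 22 reads per library and a log2 fold change of 0.34 (SE 0.60). The laminin receptor chains thus ranged from -0.52 to 0.43, and each of these values was within 2 SE of 0.

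ITGB1, the β chain shared by the laminin, collagen and several RGD receptors, had 1645, 927 and 422 reads at 500 Pa and 2419, 798 and 601 at 8000 Pa. In CPM this was 91.9, 104 and 60.3 on soft against 193, 84.3 and 59.9 on stiff gels. A single library, 8000 Pa replicate 1, lay above all others. The remaining stiff values were 84.3 CPM, within the soft range of 60.3 to 104 CPM, and 59.9 CPM, just below it. The log2 fold change of 0.40 (SE 0.39) became -0.24 without 8000 Pa replicate 1. ITGB1 lies on chromosome 10 from 32900319 to 33005792 (minus strand).

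Of the collagen receptor chains, ITGA2, the α2 chain of epithelial collagen receptors on chromosome 5 from 52989326 to 53094779, was the 1 of 4 that could be tested. It had 128, 133 and 89 reads on soft and 234, 148 and 108 on stiff gels, or 7.15, 14.9 and 12.7 against 18.7, 15.6 and 10.8 CPM. Both the lowest soft value and the highest stiff value belonged to replicate 1, where the pair differed by 1.36 on the log2 scale, against 0.07 and -0.24 in pairs 2 and 3. The fold change over all libraries was 0.39 (SE 0.38), with 0.23 under the GC offset, 0.15 without 500 Pa replicate 1 and 0.20 without 8000 Pa replicate 1. ITGA1 and ITGA10 had 29 and 43 reads over all 6 libraries and ITGA11 had 0, so the transcripts of this class were carried by ITGA2.

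Among chains of RGD receptors, ITGB6, the β6 chain of epithelial receptors that activate latent TGF-β, was the most abundant per unit of length. It had 1058, 635 and 253 reads at 500 Pa and 1345, 539 and 430 at 8000 Pa, or 59.1, 71.0 and 36.2 against 107, 56.9 and 42.9 CPM. Like ITGB1 it was highest in 8000 Pa replicate 1, and its fold change of 0.32 (SE 0.37) was -0.15 without that library. ITGB5, the β5 chain of a vitronectin receptor, had 800, 279 and 235 against 417, 319 and 501 reads, with 36.5 ± 7.21 against 39.0 ± 9.49 CPM and a fold change of 0.09 (SE 0.30). The soft and stiff values of ITGB5 covered nearly the same range.

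ITGA5, the α chain of the main fibronectin receptor, stood at 39.2 ± 8.17 and 44.9 ± 11.9 CPM, a log2 fold change of 0.19 (SE 0.31) that ran from 0.04 (500 Pa replicate 2 left out) to 0.40 (8000 Pa replicate 1 left out). ITGAV, the α chain that β5, β6 and β8 all need, was scarce at 4.68 ± 0.851 and 5.81 ± 3.86 CPM, and its fold change of 0.31 (SE 0.48) was -0.39 without 8000 Pa replicate 1. ITGB8, another partner of αV, stood at 16.8 ± 2.74 and 16.6 ± 12.4 CPM, a fold change of -0.02 (SE 0.46). With total library size in place of TMM the ITGB8 value was 0.23, so that its sign rests on the scaling, and without 8000 Pa replicate 1 it was -0.82. ITGA2B and ITGB3, the platelet fibrinogen receptor chains, had 34 and 30 reads in all, and ITGA8 had 0.

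The chains known from leukocytes were mostly near 0, with 2 exceptions. ITGAE, which encodes the αE chain of the lymphocyte receptor for E-cadherin, had 1467, 561 and 442 reads on soft and 602, 571 and 611 on stiff gels, or 82.0, 62.7 and 63.2 against 48.1, 60.3 and 60.9 CPM. The soft values all lay above the stiff ones on this scale, by a gap of less than 3 CPM between the nearest libraries, and on the scale per length the groups overlapped. Its log2 fold change was -0.30 (SE 0.26), and -0.15 without 500 Pa replicate 1. ITGB7, the β chain that αE joins, had 33 reads in all. An exon of ITGAE shares 427 bases with HASPIN on the opposite strand, and without a stated strand setting the reads there cannot be assigned.

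ITGB2, the β2 chain of leukocyte integrins, had 314, 219 and 119 reads against 217, 260 and 340, or 17.5, 24.5 and 17 against 17.3, 27.5 and 33.9 CPM. The fold change was 0.41 (SE 0.34), and 0.53 with the GC offset. Leaving out 8000 Pa replicate 1 gave 0.64 for ITGB2, and leaving out 8000 Pa replicate 3 gave 0.20. Its α partners were almost absent: ITGAL had 11 reads, ITGAM 7, ITGAX 1 and ITGAD 0 over the 6 libraries. Of the 8 leukocyte markers, which include ITGAM, CD14, CD68 and LYZ were tested and 0 passed in either fit. ITGB2 shares 303 exon bases with its antisense gene ITGB2-AS1, which had 7 to 17 reads per library. ITGA9 had 12 reads and ITGA4 had 0.

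The laminin α chains split by gene. LAMA3 had 883, 420 and 107 reads on soft and 1128, 375 and 368 on stiff gels, or 49.3, 47.0 and 15.3 against 90.1, 39.6 and 36.7 CPM. As with ITGA6, 8000 Pa replicate 1 was the highest and 500 Pa replicate 3 the lowest library, and the other 4 lay between 36.7 and 49.3 CPM. The log2 fold change was 0.57 (SE 0.45), the largest of the 21 chains, with pairs at 0.87, -0.24 and 1.25. It was 0.54 with the GC offset, 0.27 without 500 Pa replicate 3 and 0.03 without 8000 Pa replicate 1. LAMA3 lies on chromosome 18 from 23689443 to 23956222 (plus strand).

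LAMA4, the α chain of laminins of vessels and other mesenchymal tissues, had 452, 189 and 100 reads on soft and 415, 245 and 309 on stiff gels. In CPM this was 25.3, 21.1 and 14.3 against 33.1, 25.9 and 30.8, so all 3 stiff libraries lay above all 3 soft ones, although the closest pair of values differed by less than 1 CPM. Its log2 fold change was 0.56 (SE 0.32), positive in all 3 pairs at 0.39, 0.29 and 1.10, and 0.41 with the GC offset. Of all tested genes 14.6% were higher in all 3 pairs. The markers of endothelium PECAM1 and CDH5 were also higher on stiff gels in the fit with the replicate term, and whether they bear on LAMA4 was not tested. LAMA5, the main laminin α chain of most adult epithelia, had 803, 349 and 526 against 341, 441 and 698 reads, or 44.9, 39.0 and 75.2 against 27.2, 46.6 and 69.6 CPM. LAMA5 was highest in the replicate 3 libraries of both gels and its fold change of -0.15 (SE 0.37) turned to 0.23 when 500 Pa replicate 3 was left out, to 0.13 when 8000 Pa replicate 1 was, and to 0.19 with the GC offset. LAMA1 and LAMA2 had 18 and 24 reads in all.

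LAMB3, the β chain that joins LAMA3 in epithelia, was the most abundant of all 38 chains and lies on chromosome 1 from 209614870 to 209652466 (minus strand). It had 16777, 7241 and 5610 reads on soft and 6300, 6659 and 8347 on stiff gels, or 937, 809 and 802 against 503, 704 and 832 CPM. The 2 lowest values were on stiff gels, while 8000 Pa replicate 3 exceeded 2 of the soft libraries. The log2 fold change was -0.32 (SE 0.26), with -0.17 under the GC offset and -0.15 without 8000 Pa replicate 1. As with ITGB4, the part of the basal and epithelial markers in this value was not tested. LAMB2, a β chain known from nerve-muscle and kidney basement membranes, had 4220, 1914 and 2505 against 1711, 2319 and 3295 reads, and a fold change of -0.19 (SE 0.33) that turned to 0.12 or 0.09 when 500 Pa replicate 3 or 8000 Pa replicate 1 was left out, and to 0.01 with the GC offset. LAMB1, the β chain of many other laminins, stood at 31.6 ± 16.5 and 39.5 ± 12.3 CPM with a fold change of 0.32 (SE 0.39), and LAMB4 had 0 reads. The LAMB1 value was 0.05 without 8000 Pa replicate 1, 0.06 without 500 Pa replicate 3 and 0.77 without 500 Pa replicate 2.

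LAMC1, the γ chain of most laminins, lies on chromosome 1 from 183023460 to 183145592 (plus strand). It had 222, 245 and 108 reads against 346, 257 and 241, or 12.4, 27.4 and 15.4 against 27.6, 27.2 and 24.0 CPM. The 3 stiff libraries of LAMC1 were close together and 500 Pa replicate 2 reached their level, giving a fold change of 0.52 (SE 0.35) that ran from 0.32 (500 Pa replicate 1 left out) to 0.92 (500 Pa replicate 2 left out). LAMC3 had 2 reads, both in 8000 Pa replicate 1.

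The fold changes of ITGA6 and ITGB4, and of LAMA3 and LAMB3, had opposite signs although each pair assembles into 1 protein. To set them side by side without any scaling between libraries, ratios of levels per length (TPM, reads per kilobase of all exons of the gene, scaled to the same sum in each library) were taken within each library. The ITGA6 to ITGB4 ratio was 0.0903, 0.112 and 0.0264 on soft and 0.393, 0.109 and 0.0584 on stiff gels. Its log2 mean was -3.96 ± 1.12 on soft and -2.88 ± 1.4 on stiff gels, and the difference of 1.08 shrank to 0.31 when 8000 Pa replicate 1 was left out and to 0.43 when 500 Pa replicate 3 was. The ITGA3 to ITGB4 ratio was far steadier, at 0.160, 0.120 and 0.175 against 0.207, 0.169 and 0.157, where the groups also overlapped. A ratio within a library keeps any GC trend of that library. Transcript GC content was 60.9% for ITGA3 and 63.7% for ITGB4, against 42.9% for ITGA6.

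The LAMA3 to LAMB3 ratio was 0.0168, 0.0185 and 0.00609 on soft and 0.0572, 0.0180 and 0.0141 on stiff gels, with overlap. The highest value was in 8000 Pa replicate 1 and the lowest in 500 Pa replicate 3, as for the ITGA6 to ITGB4 ratio. The mean log2 difference of 0.98 was 0.36 without 8000 Pa replicate 1. Among RGD receptors, the ITGAV to ITGB6 ratio was 0.0405 to 0.0587 on soft and 0.0412 to 0.0543 on stiff gels. This ratio thus varied less than the 2 chains, which each ranged over more than 2-fold between libraries. In pair 3 it still differed by -0.51 on the log2 scale, and ITGAV had as few as 26 reads in a library. ITGAV and ITGB6 are also alike in GC content (38.3% and 40.1%), and the part of GC content in these ratios was not tested.

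**Figure D2:**
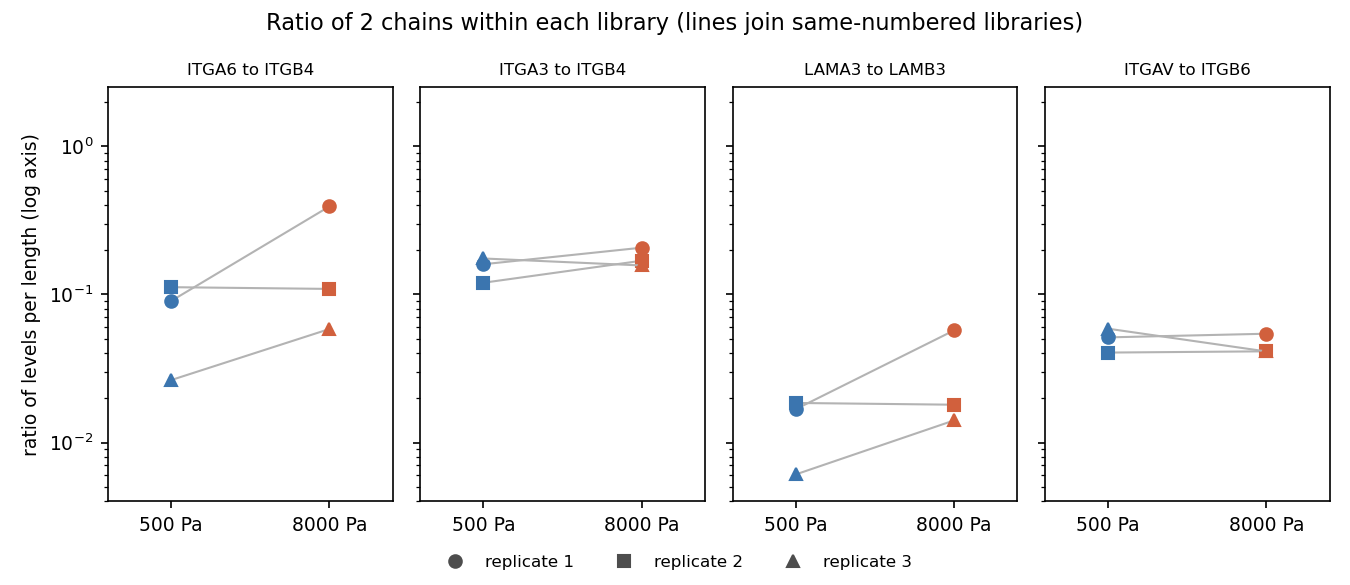
Ratio of the levels per length of 2 chains within each library (log axis), on 500 Pa and 8000 Pa gels, with lines joining same-numbered libraries and a symbol for each replicate. The ITGA6 to ITGB4 ratio spans 0.0264 to 0.393 and the ITGAV to ITGB6 ratio 0.0405 to 0.0587 over the same 6 libraries.

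Fold changes of the chains ran with the GC content of their transcripts. Of the 9 tested chains at or below 50% GC, 8 were above 0 with a median of 0.39, and of the 12 above 50% GC, 6 were above and 6 below 0 with a median of -0.03. The same split over all tested genes gave medians of 0.12 (6049 genes) and -0.16 (4954 genes). Across the 21 chains the Spearman rho of fold change with GC content was -0.48, against -0.38 across 11003 tested genes with an annotated transcript, where genes are not independent and share the same 6 libraries. By pair it was -0.82 in pair 1, 0.52 in pair 2 and -0.07 in pair 3 for the chains, and -0.62, 0.06 and 0.02 for all genes. The GC offset is fitted on these libraries and built to remove a GC trend. It brought the rho of the chains to -0.04 and the median of the 21 chains from 0.32 to 0.19, with 16 above and 5 below 0. It changed the sign of LAMA5 and LAMB2 and left ITGB4 at -0.28, ITGA6 at 0.23, LAMA3 at 0.54 and LAMB3 at -0.17.

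**Figure D3:**
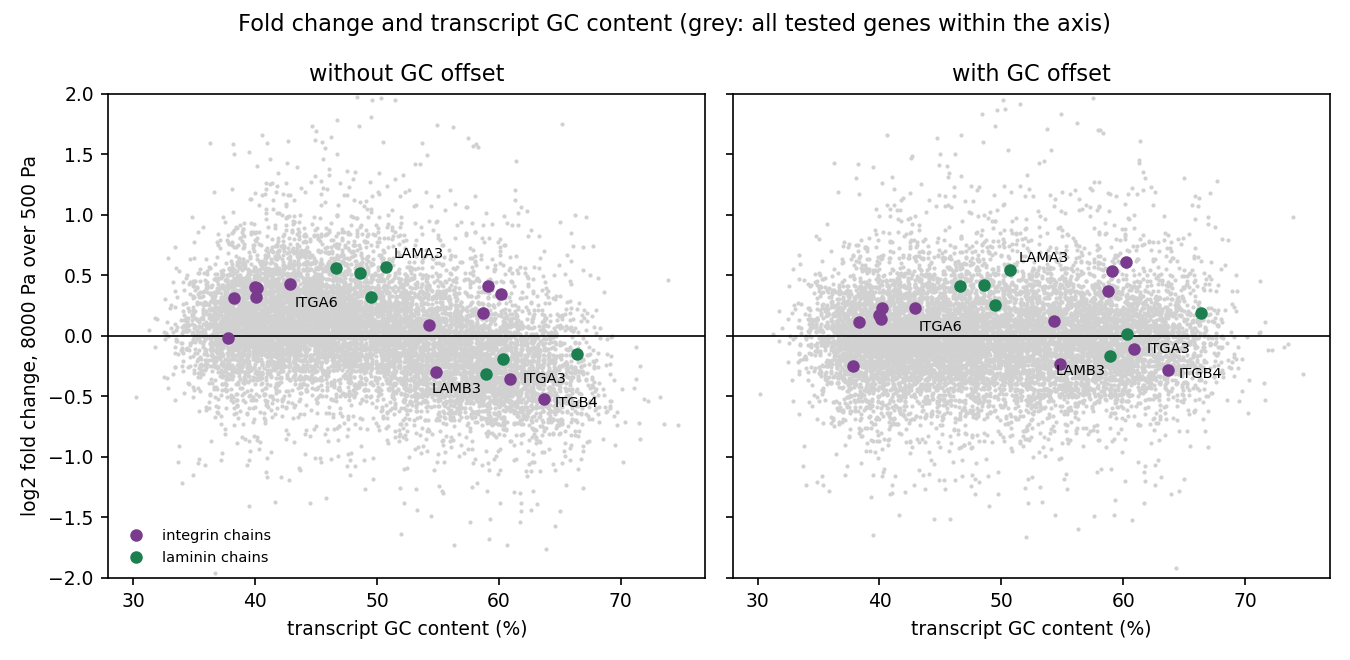
Log2 fold change (8000 Pa over 500 Pa) against transcript GC content in percent, without (left) and with (right) a GC offset in each library; purple points are integrin chains, green points laminin chains and grey points all tested genes. Of the 21 tested chains 20 are drawn. On the left the chains slope downward (rho -0.48 over all 21), with ITGA6 at 0.43 and ITGB4 at -0.52. On the right rho is -0.04, with an offset that is built to remove such a slope.

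Per unit of transcript length, LAMB3 was the highest of all laminin chains. It had a mean of 501 TPM over the 6 libraries, LAMB2 111 TPM and LAMB1 14.5 TPM. The α chains were far lower, with LAMA3 at 10.6 TPM (2.57 to 24.9), LAMA5 at 10.6 TPM (7.72 to 13.9) and LAMA4 at 7 TPM (3.04 to 11.6), so the order of these 3 changed between libraries. LAMA3 took 38.4%, 40.8% and 13.7% of summed laminin α levels on soft and 56.2%, 32.9% and 24.8% on stiff gels. LAMB3 took 80.8% ± 4.23 of summed laminin β levels on soft and 78.9% ± 1.35 on stiff gels. LAMA3 has a long and a short form, and a length taken over all exons understates a gene that uses the short form.

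Among integrin β chains ITGB4 led at 274 TPM, followed by ITGB1 at 55.2 TPM (24.7 to 130.2), ITGB6 at 44.1 TPM (19 to 92.8), ITGB5 at 18.2 TPM and ITGB2 at 10.6 TPM. ITGB4 took 74.8% ± 6.40 of summed β levels on soft and 61.4% ± 18.6 on stiff gels, where 8000 Pa replicate 1 stood at 40.4% and the others at 67.6% and 76.1%. Among α chains ITGA3 led at 44.1 TPM (37.0 to 52.1), with ITGA6 at 30.9 TPM (7.87 to 70.03), ITGAE at 29.2 TPM and ITGA5 at 17.1 TPM. ITGA6 lay above ITGA3 in 8000 Pa replicate 1 alone, where the ratio of the 2 was 1.89. Together ITGA3 and ITGA6 took 57.3% ± 0.818 of summed α levels on soft and 57.2% ± 5.45 on stiff gels, although the share of each varied from 7.52% to 41.4% for ITGA6 and from 21.9% to 49.8% for ITGA3. Lengths taken from the longest coding transcript gave 336 TPM for LAMB3, 193 TPM for ITGB4 and 54.5 TPM for ITGA3. They also gave 27.3 TPM for ITGB6, 22.2 TPM for ITGA6 and 31.1 TPM for ITGAE, so the order of ITGA6 and ITGAE depends on the length used.

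**Figure D4:**
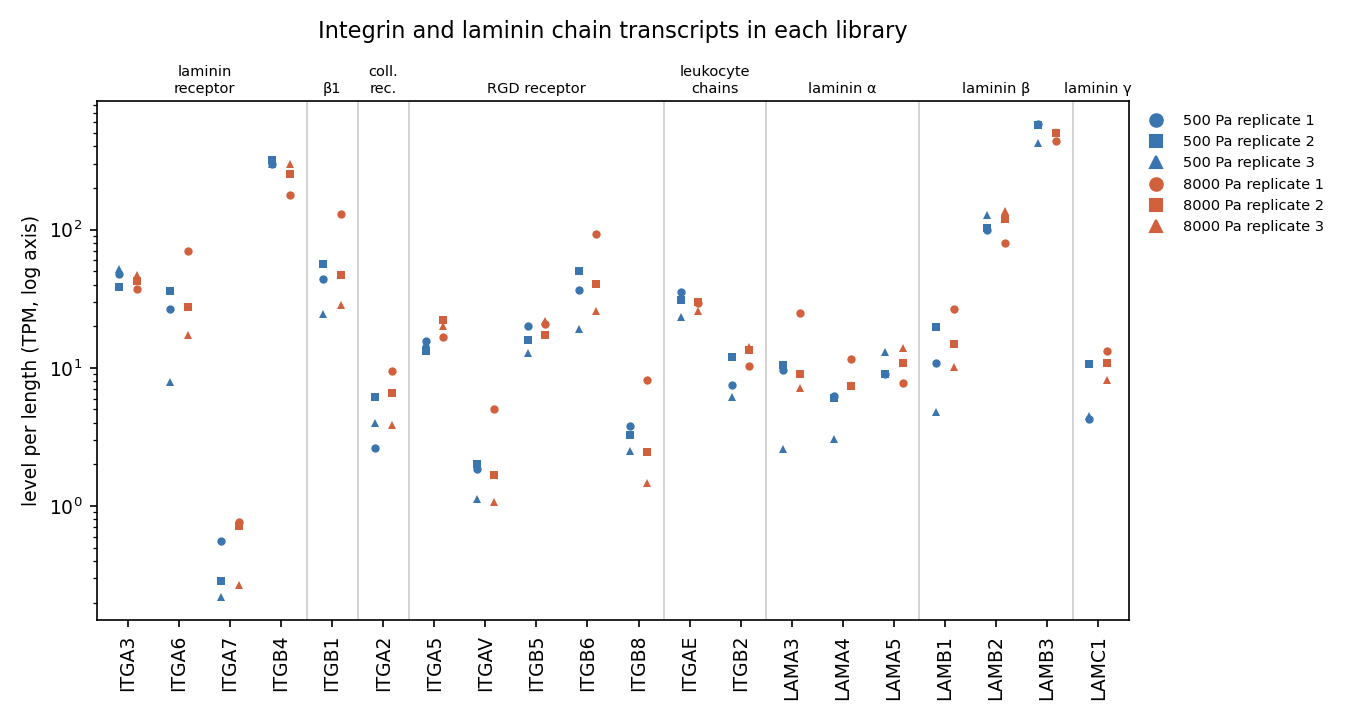
Level per length (TPM, log axis) of 20 of the 21 tested chains in each library, blue for 500 Pa and red for 8000 Pa, with a symbol for each replicate. LAMB3 (421 to 578 TPM) and ITGB4 (178 to 321 TPM) stand above all other chains, and 8000 Pa replicate 1 (red circles) is the top library for ITGA6, ITGB1, ITGB6 and LAMA3.

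The other 17 chains did not have enough reads for a test. Of these, 5 had 0 reads in every library (ITGA4, ITGA8, ITGA11, ITGAD and LAMB4), and the other 12 had 1 to 43 reads in all. A count of 0 allows up to 3 reads per library, which is 0.168 to 0.429 CPM.

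Partners of these chains were read from the same fit. Of 20 laminin and hemidesmosome partners 14 were tested, with 8 above and 6 below 0, a median of 0.09 and 0 called in either fit. COL17A1, the transmembrane collagen that binds the β4 receptor in hemidesmosomes, stood at 4.39 ± 1.88 on soft and 7.30 ± 1.31 CPM on stiff gels (log2 fold change 0.71). COL4A5, a collagen chain of basement membranes, stood at 4.14 ± 1.97 and 6.23 ± 1.09 CPM (0.60). These 2 partners had the smallest p of their list, and neither passed. Of 20 other integrin ligands 12 were tested, with 8 above and 4 below 0 and a median of 0.48. FN1, the fibronectin ligand of the α5β1 receptor, was the 1 that passed, and only with the replicate term (1.37 on the log2 scale, SE 0.24, with an edgeR adjusted p of 2.29e-05), while its receptor chains ITGA5 and ITGB1 had 0.17 and 0.26 in that fit. Without pair 3, FN1 did not pass, and without the replicate term its log2 fold change was 1.34 (SE 0.43). In CPM, FN1 stood at 36.0 ± 20.2 on soft and 90.7 ± 45.9 on stiff gels. Of the ligands, 4 had 0 reads (VTN, COL1A2, COL3A1 and VCAM1).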

How the data were processed

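The labelled stiffness set the groups. The authors deposited raw counts per gene symbol, and the submitters' processing notes name HISAT2 2.1.2, HTSeq 0.11.4, limma, DESeq2 and GRCh38. Strandedness, annotation and the handling of multiply placed reads are not stated there. The deposited log2 values, TMM-scaled per the file headers, differed from those computed here by at most 0.0441 over 7257 genes with at least 50 counts. edgeR 4.0.16 (R 4.3.3) tested stiffness alone on genes kept by filterByExpr (minimum count 10, minimum total 15), with Benjamini-Hochberg adjustment over 11517 genes at 0.05. The replicate number was added as an alternative: same-numbered libraries deviated together (correlations 0.409, 0.184 and 0.516, each above 0.1), though the labels state no shared day. Of differently numbered libraries, 500 Pa replicate 2 and 8000 Pa replicate 1 correlated at 0.199, above pair 2. The others ran from -0.499 to 0.0491. The fit with the replicate number has 2 residual degrees of freedom per gene and infinite prior degrees of freedom. Its p-values and SE therefore use a spread shared across genes of like level, not each gene's own. The fit without the block has 4 residual and 9.02 prior degrees of freedom. No 2 libraries agreed within sampling noise (chi-square per degree of freedom 11.6 or more). Nothing states separate cultures beyond "biological", so p-values measure the spread between these libraries, in the block fit as shared across genes. GC content and lengths come from GENCODE 29, matched by symbol for 95.5% of tested genes. The GC offset is a lowess on GC (span 0.3) of each library's log2 CPM minus the gene's mean over the 6 libraries. Pair differences used a prior count of 2. Members, classes and lists were chosen with earlier results of these data known. Classes follow known ligands. Reads are named for ITGA3, ITGA6, ITGB4 and ITGB1, the 2 most abundant chains per class and the largest fold change per class; chain ratios, the sequences shown and LAMA4 were chosen after values were seen. Floors cover counting error only. Steps were tested on simulated data. DESeq2 1.42.0 and limma 3.58.1 served as alternatives. Values of 1 tested chain are not reported here, though it is in the counts and medians over all chains.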

Additional observations from a re-analysis of the deposited data

How the results depend on the processing

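No integrin or laminin chain passed under any of the 19 alternatives, and the lowest adjusted p was 0.0639 (edgeR, LAMA3, without pair 2). Over all genes, 0 were called; 8 were called without a filter on low counts, 7 by DESeq2, and 0 to 1 with a library left out (1 without 500 Pa replicate 3). With the replicate block 61 were called, 94 with the GC offset added, 42 by DESeq2, and 38, 81 and 12 with pairs 1, 2 or 3 left out. The block called 1 other ligand (FN1), as it did with the GC offset, by DESeq2 and without pair 1. Without pair 2 the block called 2 ligands (FN1 and TNC) and 1 laminin partner (COL4A4), and without pair 3 it called 0. Of the marker lists, the block also called 2 endothelial genes, PECAM1 and CDH5.

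The median of the laminin receptor chains moved from -0.01 to -0.32 with at least 10 counts in every library, which drops ITGA7, and to -0.30 without pair 2. The median of all chains ran from 0.05 (without 8000 Pa replicate 1) to 0.53 (without 8000 Pa replicate 3), and was 0.07 without pair 1 in the block fit. ITGB8 turned to 0.23 with total library size, 0.03 with no filter and 0.06 with at least 10 counts. With the GC offset LAMA5 turned to 0.19 (0.20 with the block) and LAMB2 to 0.01. With 1 library left out, values ran from -0.13 to 0.77 for ITGA6, -0.39 to 0.66 for ITGAV, -0.24 to 0.75 for ITGB1, -0.10 to 0.28 for ITGB5, -0.15 to 0.62 for ITGB6, -0.82 to 0.37 for ITGB8, -0.52 to 0.23 for LAMA5 and -0.49 to 0.12 for LAMB2. In the block fit without pair 1, the values were -0.06 for ITGA2, -0.26 for ITGAV, -0.14 for ITGB1, -0.02 for ITGB6, 0.09 for LAMA5 and 0.05 for LAMB2. Without pair 2 ITGA5 was at -0.10, and without pair 3 ITGB5 was at -0.11 and ITGB8 at 0.18. Beyond what dropping libraries or genes does by construction, the cause was not tested. ITGA3, ITGB4, ITGAE, ITGB2, LAMA3, LAMA4, LAMB1, LAMB3 and LAMC1 kept their sign under all 19 alternatives. Few reads limit ITGA7 and the 17 untested chains.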
